A study of Mus musculus with 4 samples.

Results

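The protocadherins and the cadherins with a numbered name, both families of calcium-dependent adhesion proteins, were followed in RNA-seq libraries of astrocytes isolated from mouse cerebral cortex at postnatal day 5. Members were all protein-coding genes whose name begins with Pcdh or is Cdh followed by digits, except Cdh5, the cadherin of endothelial junctions. This gave 84 of the 23475 genes in the deposited count tables: 13 of the Pcdh alpha cluster, 21 of the beta cluster and 20 of the gamma cluster, and 30 genes outside the clusters. The 30 comprised 9 delta protocadherins, 3 other protocadherins, 3 type I cadherins, 12 type II cadherins and 3 further cadherins. The study compared 2 libraries labelled KO with 2 libraries labelled WT. The design text names the genotypes PD1cKO-Cx3 and PD1fl/fl, so both groups would carry the conditional PD1 allele, and a label ties neither genotype to a library beyond the words KO and WT. PD1, encoded by Pdcd1, is an inhibitory receptor best known from T cells. The source does not spell out what drives the deletion beyond Cx3 in the name. Nothing in the labels says that the libraries came from separate animals or whether animals were pooled, so each p-value measures the spread between these libraries only.

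Cadherins are transmembrane proteins that bind a like molecule on the neighbouring cell through repeated extracellular domains. Classical cadherins, types I and II, hold junctions together through catenins and the actin cytoskeleton, and the combination a cell carries helps to sort neurons and glia into layers and nuclei. In the clustered protocadherins each isoform has its own promoter and first exon, and a cell uses only some of them, a choice that depends on CTCF and cohesin. Alpha and gamma isoforms are spliced to constant exons shared within the cluster, while beta genes have no shared exon. Each cell thereby carries an own set of isoforms, by which branches of the same cell recognise each other; the gamma proteins are known to shape astrocyte as well as neuron branching. Delta protocadherins are single genes with patterned expression in the developing brain, and several bind regulators of actin.

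The libraries held 16103987 and 16405245 counts (KO 1 and KO 2), against 16961160 and 14224519 (WT 1 and WT 2). Members took 0.226% and 0.249% of them in the KO libraries, against 0.260% and 0.240% in the WT libraries. Pdcd1 itself was close to undetected: KO 1 had no listed count, which allows at most 4, KO 2 had 20, and both WT libraries had 0. The library labelled KO 2 thus held more Pdcd1 counts than the WT libraries, and the transcript gave no check of the labels; directions below are those of the libraries labelled KO over those labelled WT. Xist was missing from KO 2 alone, which was also the only library to hold Ddx3y, a gene of the Y chromosome (2472 counts), so the KO libraries came from animals of different sex. Astrocyte markers were abundant in every library. The 14 genes summed to 8412 and 7398 CPM in KO, against 8422 and 7671 CPM in WT. CPM are counts scaled to a common library total, corrected by the TMM method. Such sums do not measure purity, and markers of other cell types were present too. Microglial markers, however, were higher in both KO libraries. All 15 genes had both KO libraries above both WT libraries, beside 21.2% of all tested genes. They summed to 4629 and 3923 CPM in KO, against 865 and 1273 CPM in WT. Endothelial markers, 12 genes, summed to 697 and 344 CPM in KO, against 239 and 82.3 CPM in WT. The 13 genes of mural cells and fibroblasts, 12 of them measured, summed to 986 and 479 CPM in KO, against 391 and 421 CPM in WT.

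No protocadherin or cadherin passed the test between the groups. With edgeR's quasi-likelihood test and adjustment over all 17696 tested genes, 0 of the 76 members that passed the low-count filter had an adjusted p under 0.05, in a comparison that called 0.0170% of all genes. At an unadjusted p under 0.05 there were 9 members, 6 higher and 3 lower in KO, which is 9 of 76 beside 8.29% of all genes. DESeq2, run as an alternative, called 2 of the 76, Pcdh12 higher and Cdh8 lower, beside 2.14% of all genes. Both KO libraries lay above both WT libraries in 17 of the 76 members (22.4%), beside 21.2% of all genes, and below both in 16 (21.1%), beside 18.5%. Over the 76 members together, these shares sit near those of all genes. Among the 25 tested non-clustered members, 7 (28.0%) lay above and 8 (32.0%) below, and 6 had an unadjusted p under 0.05. Among the 51 tested clustered members the counts were 10 (19.6%), 8 (15.7%) and 3. The non-clustered shares thus lay above those of all genes and the clustered shares below them. This difference was not tested. The median log2 fold change was 0.05 over the 51 tested clustered members, -0.01 over the 25 tested non-clustered ones and -0.00 over all genes. The difference between the 2 medians was 0.06, and it ranged from -0.21 to 0.43 when 1 library at a time was left out, the lowest value coming without WT 2 and the highest without WT 1. In bulk RNA, fewer cells of a type and less RNA per cell cannot be told apart, and this holds for each difference below.

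**Figure D1:**
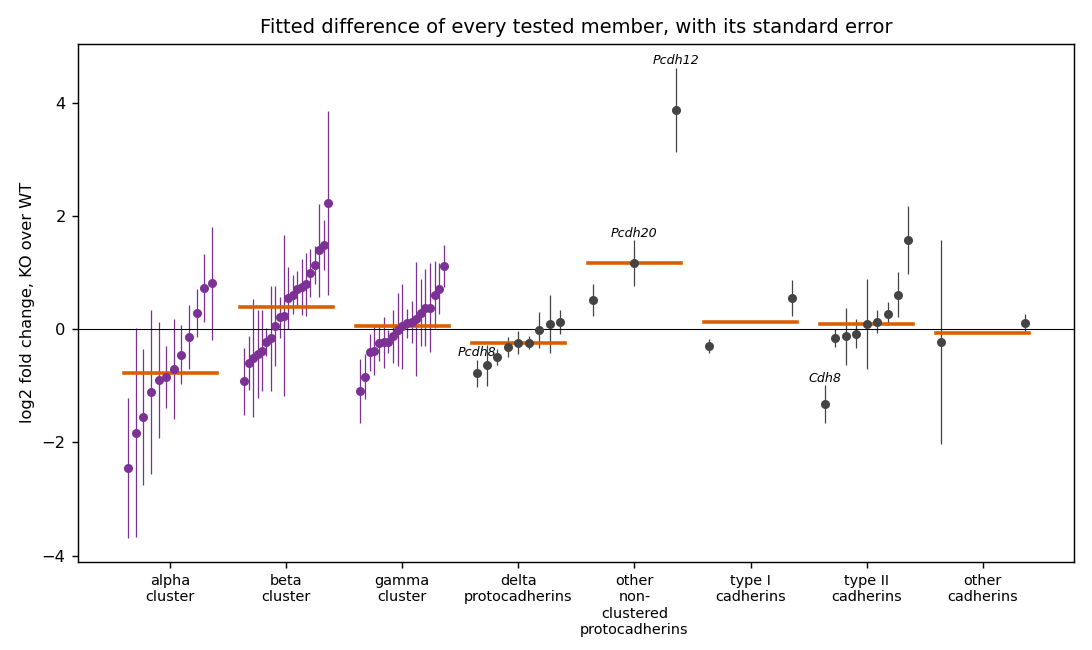
Fitted log2 fold change (KO over WT, y axis) of each of the 76 tested members, grouped by class along the x axis, with its standard error as a bar and the class median as an orange line; clustered members are purple. The class medians run from -0.77 for the alpha cluster to 1.17 for the 3 other non-clustered protocadherins, and Pcdh12 stands highest at 3.87.

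Levels between genes were compared per kilobase of exon sequence that no other gene shares. Pcdh9, a delta protocadherin of neurons and glia, had the highest level with a mean of 51.7 CPM per kilobase over the 4 libraries, and single libraries ran from 43.9 to 57.7. Cdh2, N-cadherin, followed at 48.0 CPM per kilobase (libraries 40.6 to 56.5), so the ranges of these leading genes overlap and their order is not settled by the spread. The gap to the third gene, Cdh20 at 17.9 CPM per kilobase (14.4 to 21.1), was wider than any of these ranges. Next came the gamma isoforms Pcdhgc4 at 15.9 and Pcdhgc3 at 15.8 CPM per kilobase, Pcdhgb6 at 11.9, and the cadherins Cdh11 at 11.9 and Cdh13 at 11.1, whose library ranges overlap their neighbours'. The median level per class was 7.05 CPM per kilobase in the delta protocadherins, 4.04 in the gamma cluster, 2.08 in the alpha cluster and 1.74 in the beta cluster. The remaining non-clustered classes had medians on both sides of these. They were 9.65 in the type I cadherins, 3.24 in the other protocadherins, 1.78 in the type II cadherins and 0.144 in the further cadherins. Pooled, the median was 2.40 over the clustered and 4.51 over the non-clustered members. Over all exon bases, shared ones included, Pcdhgc4 would stand at 9.90, Pcdhgb6 at 6.53 and Pcdhgc3 at 5.24 CPM per kilobase, below Cdh11 and Cdh13, so the place of the gamma isoforms in this order depends on the length used. The gamma class median would then be 1.85 and the alpha median 0.967, because a median of 54.8% of a gamma gene's exon bases and 46.4% of an alpha gene's belong to that gene alone. The labels do not say how reads in shared constant exons were counted, so levels of alpha and gamma isoforms carry this uncertainty.

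The delta protocadherins leaned towards lower levels in the KO libraries, by small amounts. Of the 9 genes, all tested, 7 had a log2 fold change below 0 and 6 had both KO libraries below both WT libraries, beside 18.5% of all genes, with a median of -0.24; none passed the test. Summed over the class, they held 749 and 832 CPM in KO, against 930.1 and 912 CPM in WT, groups that do not overlap. The class median stayed between -0.36 and -0.28 when any 1 library was left out. Some marker lists leaned lower in KO as well, only in part. Of 8 tested radial glia genes 5 had a log2 fold change below 0 and 3 above. In 3 both KO libraries lay below both WT libraries and in 0 above, beside 18.5% and 21.2% of all genes. The 9 radial glia genes summed to 2763 and 2489 CPM in KO, against 3022 and 2837 CPM in WT. Of 14 neuronal genes 6 lay below and 3 above, with a median log2 fold change of -0.09 and sums that overlap between the groups. The microglial, endothelial and mural lists went the other way, as given above. The part of these cell types in the delta values was not tested.

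Among them, Pcdh10, which binds the actin-regulating WAVE complex, had 91.0 and 92.5 CPM in KO, against 124 and 136 CPM in WT. Its log2 fold change was -0.50 ± 0.14 (standard error throughout, edgeR adjusted p = 0.448). The groups lie apart and the replicates of each lie close together. Pcdh8, whose rat protein arcadlin takes part in the uptake of N-cadherin from synapses, had 21.5 and 22.7 CPM in KO, against 42.1 and 33.7 CPM in WT (log2 fold change -0.78 ± 0.24, adjusted p = 0.458). The KO libraries nearly coincide here, and the WT libraries are both higher. For Pcdh9 the values were 298 and 345 CPM in KO, against 391 and 367 CPM in WT (-0.24 ± 0.12, adjusted p = 0.708), a non-overlapping but small difference.

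The X-linked delta members did not separate the groups. Pcdh11x had 121 and 181 CPM in KO, against 140.4 and 136 CPM in WT, so KO 2, the library without Xist, was the highest and KO 1 the lowest (log2 fold change 0.13 ± 0.21, adjusted p = 0.954). Its direction turned to -0.19 without KO 2; the part of sex in this was not tested. Pcdh19, the gene of a female-limited human epilepsy whose protein pairs with N-cadherin, had 16.8 and 18.2 CPM in KO, against 8.52 and 24.4 CPM in WT. Both KO libraries fall between the WT libraries (0.09 ± 0.52, adjusted p = 0.991). The remaining delta genes, Pcdh1, Pcdh7, Pcdh17 and Pcdh18, had log2 fold changes from -0.64 to -0.01.

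The 3 remaining non-clustered protocadherins were all higher in both KO libraries than in either WT library, beside 21.2% of all genes. None of them passed edgeR's test. Pcdh12, a protocadherin of endothelial cells on chromosome 18, had 12.1 and 5.57 CPM in KO, against 0.769 and 0.417 CPM in WT, from 194 and 91 counts against 13 and 6. The groups lie far apart, and the KO libraries also differ from each other. Its log2 fold change of 3.87 ± 0.75 was the largest of any tested member, with an edgeR adjusted p of 0.259 and a DESeq2 adjusted p of 0.00220 (log2 fold change 3.89). KO 1, with the higher Pcdh12 level of the KO libraries, also had the higher endothelial sum, 697 CPM beside 344 CPM in KO 2, and WT 1, the higher WT library, had 239 CPM beside 82.3 CPM in WT 2. Of the 12 endothelial markers, 11 had both KO libraries above both WT libraries, beside 21.2% of all genes. Their median log2 fold change was 1.92. Cldn5, a tight-junction protein of brain vessels, had 273 and 136 CPM in KO, against 78.2 and 24.4 CPM in WT. The part of endothelial RNA in the Pcdh12 difference was not tested.

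Pcdh20 had 43.3 and 37.9 CPM in KO, against 24.7 and 11.3 CPM in WT (log2 fold change 1.17 ± 0.40, adjusted p = 0.50). Both KO libraries lie above WT 1, and WT 2 is the lowest by a clear step. Pcdh15, which with Cdh23 forms the tip links of inner ear hair cells and is also present in oligodendrocyte precursors, had 90.9 and 90.5 CPM in KO, against 80.5 and 45.8 CPM in WT (0.52 ± 0.28, adjusted p = 0.730). The difference here comes mostly from WT 2. Summed markers of oligodendrocyte precursors were also lowest in WT 2, with 2453 and 2462 CPM in KO, against 2339 and 1837 CPM in WT. Single markers were mixed. Olig1, the most abundant, had 1494 CPM in WT 1 and 1066 CPM in WT 2, and Cspg4 and Gpr17 were also lowest in WT 2. Pdgfra was nearly level between the WT libraries. Olig2 was instead highest in WT 2 (65.3 CPM in WT 1, 153 CPM in WT 2). Sox10 was slightly higher in WT 2 than in WT 1. The part of these markers in the Pcdh15 values was not tested.

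**Figure D2:**
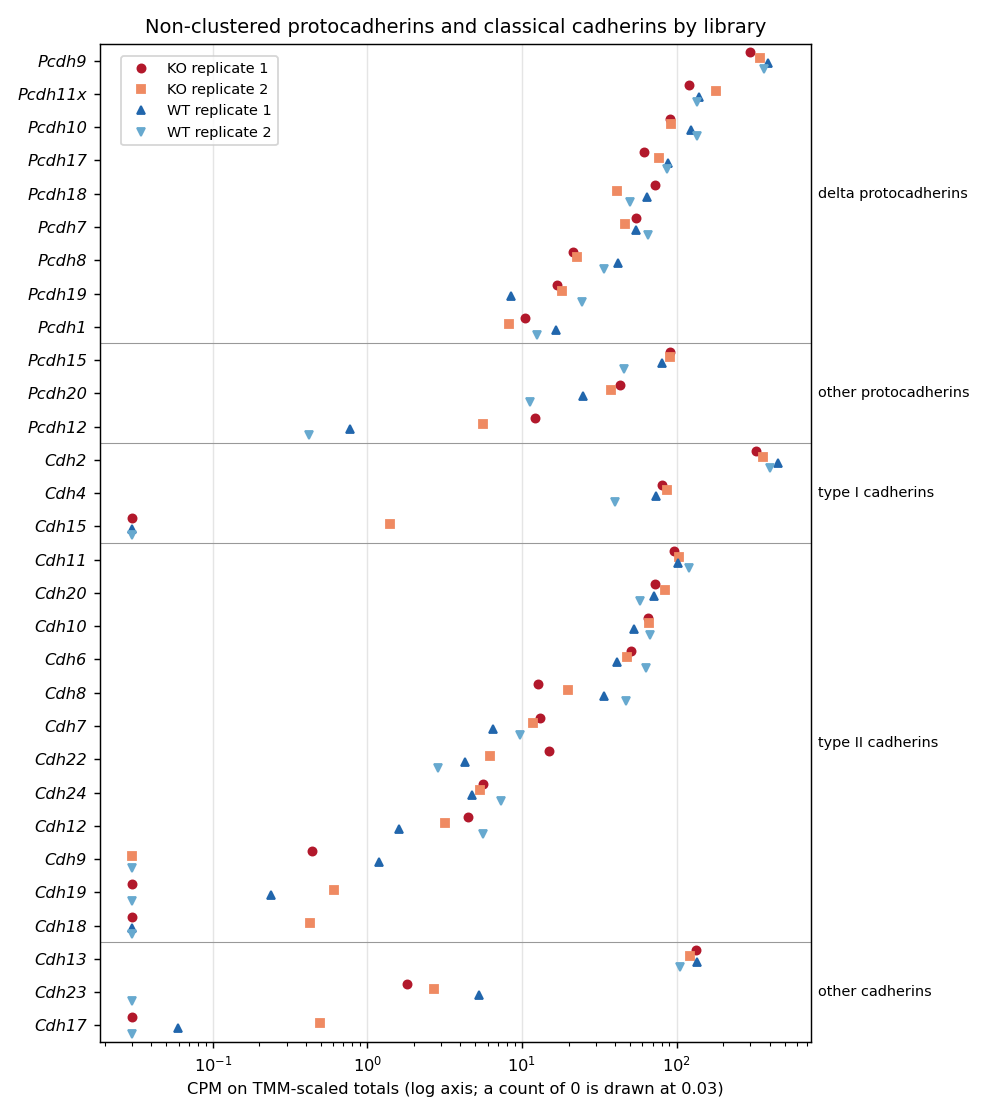
CPM on a log axis (x) of the 30 non-clustered members (rows, grouped by class and ordered by mean level) in each library, red marks for KO and blue for WT. Most rows show the 4 marks close together, as in Cdh10 or Pcdh7, while Pcdh12 and Cdh8 show a gap between the groups and Cdh23 a count of 0 in WT 2 alone. The KO 1 counts of Cdh15 and Cdh18, which were not listed, are drawn as 0.

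Promoter sequence from RefSeq (GRCm38.p6) was matched for 21 of the 84 members, all outside the clusters and with 24 annotated starts. Sequences were drawn from those with 1 annotated start and an unadjusted p under 0.05. Of these, Cdh8 and Pcdh8, both lower in the KO libraries, and Pcdh20, higher in them, are shown. Cdh22, higher in KO, and Pcdh10, lower in KO, also met this and are not shown. The lines give the 250 bases before the annotated start, 5′ to 3′ on the strand of the gene, with the motifs searched in capitals. Cdh8 lies at chr8:99416472-99416721, Pcdh8 at chr14:79771313-79771562 and Pcdh20 at chr14:88471397-88471646, all on the minus strand.
Cdh8: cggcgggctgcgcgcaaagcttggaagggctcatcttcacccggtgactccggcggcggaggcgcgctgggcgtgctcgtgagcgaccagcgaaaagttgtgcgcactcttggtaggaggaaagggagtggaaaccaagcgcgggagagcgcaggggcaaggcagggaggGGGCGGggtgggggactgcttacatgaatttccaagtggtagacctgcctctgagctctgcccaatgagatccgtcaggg
Pcdh8: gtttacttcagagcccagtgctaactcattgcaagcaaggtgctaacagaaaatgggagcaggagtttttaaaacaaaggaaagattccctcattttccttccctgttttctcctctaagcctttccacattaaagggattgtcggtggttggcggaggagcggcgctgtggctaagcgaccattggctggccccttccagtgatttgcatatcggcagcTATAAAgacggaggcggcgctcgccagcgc
Pcdh20: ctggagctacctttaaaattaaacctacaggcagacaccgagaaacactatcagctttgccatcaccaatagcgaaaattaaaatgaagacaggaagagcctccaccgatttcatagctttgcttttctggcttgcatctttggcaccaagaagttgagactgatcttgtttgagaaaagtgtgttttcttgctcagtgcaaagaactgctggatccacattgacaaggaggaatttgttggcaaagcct

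The motifs were the E-box CACCTG, a site of the Snail and Zeb repressors known from the E-cadherin promoter, the GC box GGGCGG bound by Sp1, and the TATA box TATAAA, each searched on both strands; none contains another. Cdh8 holds 1 GC box, Pcdh8 holds 1 TATA box near its start, and Pcdh20 holds none of the 3 motifs in this window. Cdh22 and Pcdh10, not shown, each hold 1 GC box, in windows with 77.6% and 63.2% G and C. The GC box was found in 9 of the 24 member windows (37.5%), beside 32.7% of the 32851 windows of this length over all genes. The E-box was in 3 of 24 (12.5%), beside 17.2%, and the TATA box in 2 of 24 (8.33%), beside 12.4%. The windows differ in base composition, with 64.4% G and C in Cdh8, 51.2% in Pcdh8 and 42.4% in Pcdh20. The matches describe letters, and nothing measured here bears on binding.

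Of the type I cadherins, Cdh2 was the most abundant, with 328 and 365 CPM in KO, against 456 and 399.8 CPM in WT (log2 fold change -0.30 ± 0.13, adjusted p = 0.607). Both KO libraries lie below both WT libraries. Cdh4, R-cadherin, had 80.2 and 86.3 CPM in KO, against 73.7 and 39.8 CPM in WT (0.55 ± 0.31, adjusted p = 0.738), and again WT 2 is the library that stands low. Cdh15, the M-cadherin of muscle, had 23 counts (1.41 CPM) in KO 2, no listed count in KO 1, which allows at most 4, and 0 in WT 1 and WT 2. The counts of 0 allow up to 3 counts, or 0.178 CPM in WT 1 and 0.208 CPM in WT 2 (counting error only). KO 2 was the only library with a listed count, and the gene was not tested.

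Among the 12 type II cadherins, 9 were tested, with a median log2 fold change of 0.09, 5 above 0 and 4 below. Cdh8, a cadherin of neurons in defined cortical circuits, had 12.7 and 19.8 CPM in KO, against 34.0 and 47.4 CPM in WT. The highest KO library lies well below the lowest WT library, and the log2 fold change was -1.32 ± 0.33 (edgeR adjusted p = 0.372, DESeq2 adjusted p = 0.0386). Neuronal markers, 14 genes, summed to 2656 and 2837 CPM in KO, against 2825 and 3159.5 CPM in WT, with a median log2 fold change of -0.09. Of the 14, 6 (42.9%, beside 18.5% of all genes) had both KO libraries below both WT libraries. Another 3 (21.4%, beside 21.2%) had both above. Tubb3, the tubulin of young neurons, had 244 and 215 CPM in KO, against 339 and 358 CPM in WT (log2 fold change -0.60). The more abundant Map2 and Dcx stood at -0.20 and -0.13. The 3 genes above were Snap25 at 0.51, Slc17a6 at 0.73 and Snhg11 at 1.28. The part of neuronal RNA in the Cdh8 difference was not tested.

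The other type II members that led by level moved little. Cdh11, OB-cadherin, had 96.3 and 104 CPM in KO, against 102 and 121 CPM in WT (-0.15 ± 0.16, adjusted p = 0.911). Cdh10 had 64.9 and 66.8 CPM in KO, against 53.1 and 67.1 CPM in WT (0.13 ± 0.20, adjusted p = 0.947). In both genes the groups overlap. Cdh20 had 72.1 and 84.7 CPM in KO, against 71.8 and 57.9 CPM in WT (0.27 ± 0.20, adjusted p = 0.822), with KO 1 and WT 1 almost equal. Cdh22, a low gene, had 14.9 and 6.24 CPM in KO, against 4.26 and 2.85 CPM in WT (1.57 ± 0.60, adjusted p = 0.560), without overlap between the groups. The other 4 tested type II genes, Cdh6, Cdh7, Cdh12 and Cdh24, had log2 fold changes from -0.13 to 0.61. Cdh9, Cdh18 and Cdh19 were too low to test. Cdh18 had 7 counts in KO 2, no listed count in KO 1 (at most 4) and 0 in both WT libraries.

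Of the 3 further cadherins, Cdh13, the membrane-anchored T-cadherin that lacks a cytoplasmic domain, had 134 and 123 CPM in KO, against 135 and 106 CPM in WT, with overlapping groups (0.10 ± 0.17, adjusted p = 0.961). Cdh23, partner of Pcdh15 in the tip link, had 29 and 44 counts in KO, against 89 and 0 in WT. The KO libraries fall between WT libraries at 5.27 CPM (WT 1) and at most 0.208 CPM (WT 2). Its fitted difference therefore has a standard error of 1.80 around -0.23 (adjusted p = 0.993), and without WT 1 it would be 8.14, so no direction can be given. Cdh17, the cadherin of liver and intestine, had 0 and 8 counts in KO, against 1 and 0 in WT.

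The clustered protocadherins lie together on chromosome 18, where the alpha genes span 36939205 to 37187661, the beta genes 37294812 to 37524479 and the gamma genes 37661793 to 37841873 (GRCm38). The log2 ratio of mean summed CPM, KO over WT, was -0.41 for the alpha, 0.34 for the beta and -0.06 for the gamma cluster. It was -0.22 for the delta protocadherins. The alpha cluster summed to 39.7 and 62.1 CPM in KO, against 57.8 and 77.7 CPM in WT. The beta cluster summed to 201 and 266 CPM in KO, against 199.5 and 170.0 CPM in WT, and the gamma cluster to 259 and 277 CPM in KO, against 330.2 and 229 CPM in WT. The alpha and gamma groups overlap, while the KO beta sums lie above the WT ones by a margin of 201 against 199.5 CPM. Of the 54 clustered genes in the tables, which do not list every annotated isoform, 52 and 53 had at least 1 count in KO 1 and KO 2, against 53 and 53 in WT 1 and WT 2. Beta genes resemble each other closely in sequence, so the split of reads between them is uncertain as well.

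**Figure D3:**
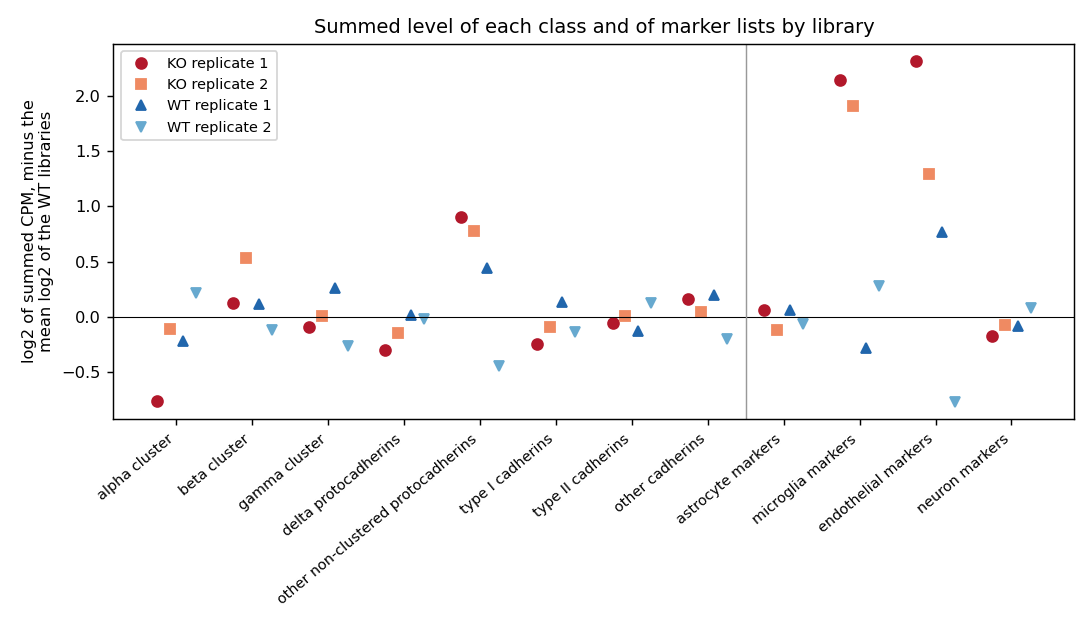
Summed CPM of each class (left) and of 4 marker lists (right) in each library, as log2 minus the mean log2 of the WT libraries (y axis). The delta protocadherins, the alpha cluster and the type I cadherins lie below 0 in both KO libraries. The beta cluster and the other non-clustered protocadherins lie above 0 in both, and the gamma cluster lies close to 0. The microglial and endothelial markers lie above 1 in both KO libraries.

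In the alpha cluster, 9 of 12 tested isoforms had a log2 fold change below 0, with a median of -0.77, and none had an unadjusted p under 0.05. The median shrank to between -0.73 and -0.17 when 1 library was left out, the smallest without WT 1 and also -0.41 without KO 1 and -0.34 without WT 2. Pcdha9 had 7.92 and 9.30 CPM in KO, against 3.20 and 24.9 CPM in WT (-0.70 ± 0.88, adjusted p = 0.927). The WT libraries enclose both KO libraries, and without WT 2 the value would be 1.43. Pcdha12 had 6.18 and 7.89 CPM in KO, against 13.3 and 5.97 CPM in WT (-0.45 ± 0.52, adjusted p = 0.921), again enclosed, with 0.24 without WT 1. Pcdha6 had the smallest p of the cluster, with 0.312 and 0.490 CPM in KO, against 3.55 and 0.903 CPM in WT, from 5 and 8 counts against 60 and 13 (-2.45 ± 1.24, adjusted p = 0.694).

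Pcdhac2, one of the C-type isoforms that most cells transcribe rather than choose at random, was the most even of the named alpha isoforms. It had 7.55 and 8.69 CPM in KO, against 6.33 and 7.01 CPM in WT (0.28 ± 0.42, adjusted p = 0.946). The name Pcdha11 belongs to a pair of gene identifiers. ENSMUSG00000007440 had 2.93 and 4.77 CPM in KO, against 8.23 and 5.62 CPM in WT (-0.84 ± 0.55, adjusted p = 0.798), and ENSMUSG00000102206 had 0 and 0.490 CPM in KO, against 0.947 and 0.833 CPM in WT, so both had KO below WT on few counts.

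The beta cluster leaned the other way. Of its 20 tested isoforms 13 had a log2 fold change above 0, 7 had both KO libraries above both WT libraries (35.0%, beside 21.2% of all genes) and 2 had both below, and the median was 0.39. That median was 0.95 without WT 1, 0.72 without KO 1 and 0.18 without KO 2, so its size rests on single libraries. Pcdhb10 had 10.3 and 16.4 CPM in KO, against 4.20 and 5.35 CPM in WT (1.48 ± 0.44, adjusted p = 0.455). Pcdhb9 had 15.0 and 19.0 CPM in KO, against 7.87 and 7.71 CPM in WT (1.13 ± 0.34, adjusted p = 0.455). In these isoforms the WT libraries lie close together and both KO libraries above them. The most abundant beta isoforms showed no such gap. Pcdhb7 had 31.1 and 49.6 CPM in KO, against 32.2 and 20.6 CPM in WT (0.61 ± 0.35, adjusted p = 0.747). Pcdhb17 had 25.4 and 20.7 CPM in KO, against 28.3 and 25.9 CPM in WT (-0.23 ± 0.25, adjusted p = 0.913), and Pcdhb20 had 23.1 and 13.4 CPM in KO, against 14.3 and 17.4 CPM in WT (0.21 ± 0.36, adjusted p = 0.960). Pcdhb17 is the only one of these leading isoforms whose groups do not overlap, with 25.4 CPM in KO 1 and 25.9 CPM in WT 2 side by side.

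The gamma cluster was centred on 0, with a median log2 fold change of 0.05 over 19 tested isoforms, 10 above 0 and 9 below; the median was 0.32 without WT 1 and -0.26 without WT 2. Pcdhgc4, a C-type isoform known to be needed for the survival of interneurons, was its most abundant member in every library, with 47.2 and 55.1 CPM in KO, against 55.8 and 63.5 CPM in WT (-0.22 ± 0.20, adjusted p = 0.874). It took 18.3% (17.1 to 19.5, exact 95% binomial interval, counting error only) and 19.9% (18.7 to 21) of the gamma counts in KO, against 16.9% (15.9 to 17.9) and 27.7% (26.1 to 29.2) in WT. WT 2 thus stood apart from the other 3 libraries in this share. Pcdhgc3 had 28.2 and 21.4 CPM in KO, against 40.8 and 24.8 CPM in WT (-0.41 ± 0.33, adjusted p = 0.852), and Pcdhgb6 had 29.0 and 34.5 CPM in KO, against 34.0 and 25.0 CPM in WT (0.10 ± 0.26, adjusted p = 0.973). The groups overlap in both. The smallest p of the cluster belonged to Pcdhgb1, with 22.3 and 16.6 CPM in KO, against 10.7 and 7.22 CPM in WT (1.12 ± 0.37, adjusted p = 0.480), and next to Pcdhga3, with 9.05 and 7.40 CPM in KO, against 18.1 and 11.2 CPM in WT (-0.84 ± 0.40, adjusted p = 0.672). Their groups lie apart in opposite directions.

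**Figure D4:**
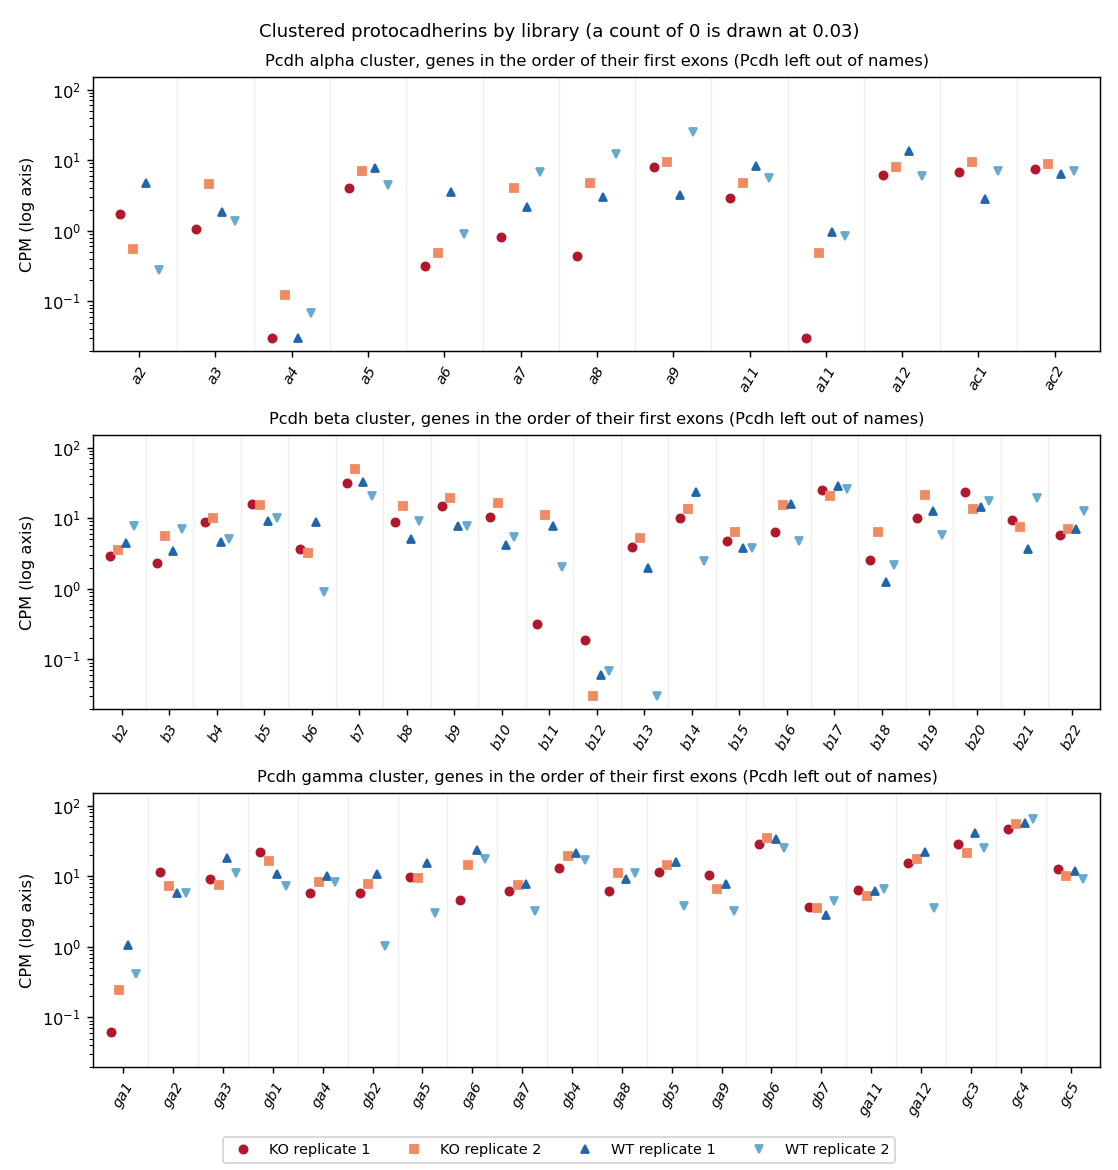
CPM on a log axis (y) of the 54 clustered isoforms in each library, in 3 panels by cluster and in gene order along the x axis, red marks for KO and blue for WT. Neighbouring isoforms differ in which library is high: Pcdha9 is highest in WT 2, Pcdhb14 in WT 1. The C-type genes stand at the right end of the alpha and gamma panels. None of them differs by over 4-fold between libraries of a group, but they are too few for this to set them apart.

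Libraries of the same group differed more in the clustered isoforms than in the single genes by raw ratio, with similar shares once genes were set against others of like level. The median absolute log2 ratio between replicates was 0.42 in the KO pair and 0.78 in the WT pair for clustered members, 0.19 and 0.40 for non-clustered members, and 0.31 and 0.42 for all tested genes. A ratio over 4-fold between the KO libraries was seen in 5 of 51 clustered members (9.80%) and 0 of 25 non-clustered ones, beside 7.07% of all genes. Between the WT libraries it was seen in 11 of 51 clustered members (21.6%) and in 1 of 25 non-clustered ones (4.0%), beside 12.5% of all genes. The clustered genes are also the lower ones, with a median of 8.12 CPM beside 55.5 CPM in the non-clustered members, and low counts vary more. Against genes of like level, the dispersion of single genes was above edgeR's trend in 19 of 51 clustered members (37.3%) and in 9 of 25 non-clustered ones (36%), beside 29.9% of all genes. On that measure the clustered and non-clustered shares were alike in size, and no test of their difference was made.

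**Figure D5:**
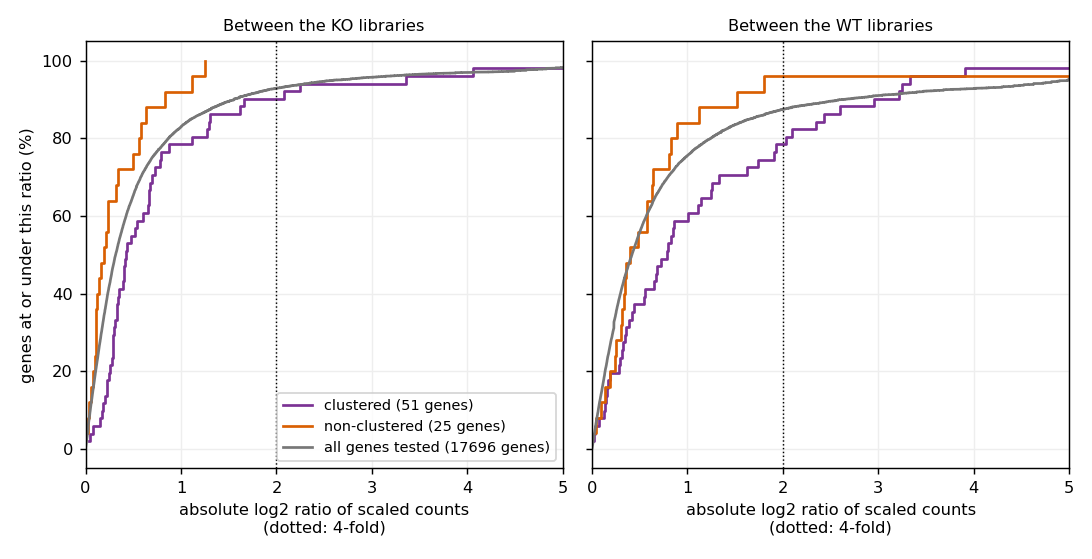
Cumulative share of genes (y axis, %) against the absolute log2 ratio between the 2 libraries of a group (x axis), KO left and WT right, for 51 clustered members, 25 non-clustered members and all 17696 tested genes. In both panels the clustered line lies below the other lines over most of the range up to a ratio of 4-fold (dotted), and more so between the WT libraries.

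The isoforms with such wide ratios, named here after their values were seen, differed by group, and Pcdha8 alone was on both lists. Between the KO libraries all 5 were higher in KO 2, and 4 of them were alpha isoforms. Pcdhb11 had 5 and 181 counts in KO, against 129 and 29 in WT, so KO 1 stands far below the other 3 libraries. Between the WT libraries 8 of the 11 were higher in WT 1, among them Pcdhb13 with 63 and 87 counts in KO, against 33 and 0 in WT, and Pcdhgb2 with 93 and 126 counts in KO, against 183 and 15 in WT. In these genes WT 2 is the library that stands low. Pcdha8 was wide in both groups, with 7 and 78 counts in KO, against 51 and 179 in WT. The 5 C-type isoforms (Pcdhac1, Pcdhac2, Pcdhgc3, Pcdhgc4 and Pcdhgc5) held no ratio over 4-fold, beside 5 and 11 of the other 46 tested clustered isoforms in KO and WT.

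The ranking of isoforms within a cluster also differed between libraries. Spearman's correlation of the alpha isoforms' counts, over 13 genes that share each library's depth, was 0.920 in the KO pair and 0.250 in the WT pair; between a KO and a WT library it ran from 0.474 to 0.822. For the 21 beta isoforms it was 0.825 (KO pair) and 0.439 (WT pair), with 0.548 to 0.706 between a KO and a WT library. For the 20 gamma isoforms it was 0.742 (KO pair) and 0.648 (WT pair), with 0.492 to 0.886 between the groups, so KO 2 and WT 1 were closer than either pair. The 30 non-clustered members kept their order, with 0.981 in the KO pair and 0.949 in the WT pair. They also span a wider range of levels, 0.0235 to 51.7 CPM per kilobase, beside 0.0713 to 15.9 in the clustered genes. The correlations were therefore not compared at like level. These are descriptions across genes, which are not independent replicates. Single isoforms show it directly. Pcdha9 took 19.9% (16.9 to 23.3) and 15.0% (12.8 to 17.3) of the alpha counts in KO, against 5.53% (4.18 to 7.16) and 32.1% (29.4 to 34.9) in WT. Pcdha12 took 15.5% (12.8 to 18.6) and 12.7% (10.7 to 14.9) in KO, against 23.0% (20.3 to 25.7) and 7.69% (6.19 to 9.40) in WT. The leading alpha isoform was thus Pcdha12 in WT 1 and Pcdha9 in WT 2, with intervals that do not overlap.

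Genes that act with these families were read from the same fit. Of 16 genes that regulate isoform choice (CTCF, cohesin and its loaders, and silencing factors), none passed the test; the median log2 fold change was 0.19, and 6 (37.5%, beside 21.2% of all genes) had both KO libraries above both WT libraries and 0 had both below (18.5% of all genes). Smchd1, a chromatin protein that silences clustered protocadherins and the inactive X chromosome, had 102 and 115 CPM in KO, against 46.8 and 85.1 CPM in WT (0.72 ± 0.30, adjusted p = 0.609). WT 1 is the low library here. Smc1a, a cohesin subunit encoded on the X chromosome, had 184 and 202 CPM in KO, against 190.3 and 256 CPM in WT (-0.21 ± 0.18, adjusted p = 0.861), and Mau2, of the cohesin loader, had 156 and 225 CPM in KO, against 191 and 165 CPM in WT (0.10 ± 0.21, adjusted p = 0.964). Both have overlapping groups.

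The catenins, which link classical cadherins to actin, were even: of 9 tested genes none passed, the median was -0.03, and 1 gene lay above and 1 below without overlap (11.1% each way, beside 21.2% and 18.5% of all genes). Ctnnb1, beta-catenin, had 345 and 311 CPM in KO, against 249.6 and 421 CPM in WT (-0.03 ± 0.25, adjusted p = 0.993), and Ctnna2, alpha-N-catenin, had 260.2 and 308 CPM in KO, against 295 and 259 CPM in WT (0.04 ± 0.14, adjusted p = 0.987). In both the groups overlap. Ctnnal1, a relative of alpha-catenin, had 33.3 and 42.5 CPM in KO, against 48.1 and 60.3 CPM in WT (-0.51 ± 0.24, adjusted p = 0.660).

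Of 21 partners through which protocadherins act (kinases, the WAVE complex, the proteases that cleave them and small GTPases), none passed edgeR's test; the median was 0.14, with 9 above (42.9%, beside 21.2% of all genes) and 4 below (19.0%, beside 18.5%) without overlap. Cyfip1, a subunit of the WAVE complex, had 165 and 151 CPM in KO, against 94.7 and 104 CPM in WT. The groups lie apart by far more than their replicates differ (0.67 ± 0.14, edgeR adjusted p = 0.312, DESeq2 adjusted p = 0.0124). Marcks, an actin-binding kinase substrate, had 598 and 628 CPM in KO, against 535 and 590.0 CPM in WT (0.12 ± 0.10, adjusted p = 0.855). This difference is small although the groups do not overlap. The microglial marker sums given above separate the groups in the same direction, and their part in these values was not tested.

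Of 24 more distant relatives, 20 were in the tables and 14 were tested, with a median of -0.01 and 3 genes on either side without overlap (21.4% each way, beside 21.2% and 18.5% of all genes). Celsr2, a planar polarity cadherin, had 209 and 173 CPM in KO, against 195 and 182 CPM in WT (0.02 ± 0.15, adjusted p = 0.993), and Clstn1, a calsyntenin of vesicle transport, had 279 and 259 CPM in KO, against 263 and 207 CPM in WT (0.20 ± 0.15, adjusted p = 0.841). Neither separates the groups. Dsg1a, a desmosomal cadherin of skin, had 1.37 and 0.979 CPM in KO and was listed at 0 in both WT libraries, so its mean was at least 6.10-fold higher in KO, taking 3 counts per library as the limit a count of 0 allows (adjusted p = 0.458). The list's median was -0.01 with that limit too.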

How the data were processed

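RNA was sequenced in 4 libraries of cortical astrocytes. The authors deposited 4 pairwise tables with whole-number counts per gene and a normalized column that is CPM, each count divided by its library's total, per the file headers and the values. Bowtie2 2.2.3, TopHat2 2.0.12 and HTSeq 0.6.0 are named in the submitters' processing notes, with no roles. The notes name mm9, but 78 of the 84 members have the positions of GENCODE M21 on GRCm38, used here. Whether counting used the strand is not stated there.

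The tables were joined by gene, and a count missing from all was set to 0 (at most 4). edgeR 4.0.16 (TMM, filterByExpr with minimum count 10, quasi-likelihood test, Benjamini-Hochberg over 17696 genes, threshold 0.05) compared KO with WT. The fit was also run on simulated data with a fixed dispersion, below the common value of 0.204 in these libraries. That run therefore does not show its power here. CPM in the text use TMM-scaled totals, and replicate ratios add 0.5 to each count. DESeq2 1.42.0, limma-voom (limma 3.58.1), other scalings and filters, a replicate block and single omitted libraries were alternatives. Members and lists were chosen with earlier results of these data known. Named were, per class, members past the threshold, or otherwise the 3 highest in CPM and the 2 smallest p (per list 2 and 1), with Pcdh11x, Pcdh19, Pcdh12 and genes of 1 library or group. A gene that this rule names among the partners is not reported here. Annotated genes of these families that the tables do not list were not analysed here. Between replicates the chi-square per gene was 21.7 (KO) and 32.8 (WT), more than sampling noise.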

Additional observations from a re-analysis of the deposited data

How the results depend on the processing

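The count of members called was 0 in every alternative except DESeq2, which called 1 higher (Pcdh12) and 1 lower (Cdh8). Over all genes, edgeR called 3 higher and 0 lower. That count of higher and lower genes was 315 and 63 with DESeq2, 25 and 3 with limma-voom, 52 and 4 without a low-count filter, 63 and 5 with a mean of at least 5 CPM, 14 and 1 at an adjusted p under 0.1, and 0 to 41 and 0 to 1 when 1 library was left out. The beta cluster's median log2 fold change ran from 0.18 to 0.95 with 1 library left out. With all exon bases, the median level per kilobase was 0.967 CPM for the alpha cluster and 1.85 CPM for the gamma cluster. The 44 named genes gave 568 values under alternatives, of which 540 kept direction and side of the threshold, 3 passed it only with DESeq2 (Pcdh12, Cdh8 and Cyfip1) and 25, in 15 genes, had the opposite direction. With limma-voom these were Cdh23 at 2.11, Ctnnb1 at 0.03 and Pcdha9 at 0.04. The log2 fold changes with 1 library left out, lowest to highest, were -0.02 to 0.31 for Cdh10, -0.06 to 0.28 for Cdh13, -1.22 to 8.14 for Cdh23, -0.12 to 0.15 for Celsr2, -0.09 to 0.16 for Ctnna2, -0.36 to 0.40 for Ctnnb1, -0.19 to 0.34 for Mau2, -0.19 to 0.39 for Pcdh11x and -0.48 to 1.04 for Pcdh19. They were -0.91 to 0.24 for Pcdha12, -1.53 to 1.43 for Pcdha9, -0.23 to 0.55 for Pcdhb20, -0.10 to 0.35 for Pcdhgb6, -0.72 to 0.00 for Pcdhgc3 and -0.41 to 0.02 for Smc1a. The cause was not tested. A dropped library leaves 1 in its group, which is assumed to vary like the other group. Low counts kept 8 members, 3 isoforms and 5 cadherins, out of the test.

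The labels number the libraries 1 and 2 in both groups but do not say that a number pairs them, and deviations of same-numbered libraries from their group means correlated at 0.0321 over all tested genes. With a replicate block, 0 members were called higher and 0 lower, and 4 and 0 of all genes. Under the block Cdh23 stood at 1.70 and Ctnnb1 at 0.02.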

Other observations

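A pair of genes next to these families fell outside the rule by biotype or by name. Pcdhgb8, annotated as a polymorphic pseudogene within the gamma cluster, had 2.00 and 6.36 CPM in KO, against 21.2 and 26.2 CPM in WT. Both KO libraries lie below both WT libraries (log2 fold change -2.50 ± 0.59, edgeR adjusted p = 0.350). Cdh5, the VE-cadherin of endothelial junctions, had 9.48 and 5.02 CPM in KO, against 4.97 and 0.555 CPM in WT (1.38 ± 1.02, adjusted p = 0.830). KO 2 and WT 1 almost coincide there, and KO 1 is the highest of the 4 libraries, as it is for Pcdh12.

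Among the partners of protocadherins, outside the rule for named genes and picked after its values were seen, Adam10, the protease that sheds cadherin and protocadherin ectodomains, had 146 and 138 CPM in KO, against 94.7 and 67.7 CPM in WT (0.81 ± 0.20, adjusted p = 0.372). The groups do not overlap.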
